A study of Mus musculus with 12 samples.

Results

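Glycolysis splits glucose into pyruvate. Hexokinase, glucose-6-phosphate isomerase, phosphofructokinase and aldolase prepare the sugar at the cost of ATP, and the later enzymes, from Gapdh to pyruvate kinase, return ATP and NADH. Lactate dehydrogenase turns pyruvate into lactate and regenerates NAD+. Many genes of the pathway are known targets of the hypoxia-inducible factors and of Myc, and the lactating and proliferating mammary epithelium is known for a high use of glucose. The enzymes described here are 10 genes, Hk1, Hk2, Gpi1, Pfkl, Aldoa, Gapdh, Pgk1, Eno1, Pkm and Ldha. They were chosen by name, and every probe whose accession maps to one of them was taken, which gave 17 of the 41174 probes on the array. All 10 genes were tested, each through its brightest probe, among 14749 genes with a symbol and 24504 features in all.

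The mRNA of mouse epithelial preparations was measured on 12 one-colour Agilent arrays in 4 groups of 3. The groups were reprogrammed lung (replicates 1, 3 and 4), reprogrammed mammary (replicates 1, 2 and 3), adult lung (replicates 1, 2 and 3) and adult mammary (replicates 1, 2 and 4). Adult donors were female mice, 10 weeks old, and the labels give no transgene or gene deletion for any group. The organs were digested with trypsin and collagenase and the epithelium was enriched by washing and slow centrifugation, with no cell sort, so cells of other types could remain. For transplantation the cells were placed in Matrigel. Whether the organ named beside "reprogrammed" is that of the donor cells or the one that formed is not given, and nor is the number of animals behind each group. The p-values therefore measure the spread between arrays, which may be technical. A level below is a log2 intensity relative to the 75th percentile of its array, and a difference of levels is a log2 difference.

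The arrays were not alike in quality. Between 72.1% and 91.2% of the spots were well above background. Reprogrammed lung replicate 1 had the 91.2% and the narrowest span of signal, and it correlated with the other arrays of its group at 0.864 and 0.875, against 0.952 between those. It also stood apart from its group in markers of immune cells. Their median level was 3.31 on that array for 6 B cell genes, against -3.17 and -2.56 on the other reprogrammed lung arrays, 2.10 for 2 neutrophil genes, against -2.73 and -4.07, and 0.67 for 6 T cell genes, against -2.98 and -2.17. The T cell median also lay above 0 on reprogrammed mammary replicate 2 (0.77) and adult mammary replicate 4 (0.82). The B cell median was uneven in these groups too. It ran from -3.32 to 0.81 in reprogrammed mammary and from -3.38 to 0.62 in adult mammary. The part of these markers in the enzyme results was not tested. Adult mammary replicate 4, with 89.2%, also had a narrow span. Results that rest on reprogrammed lung replicate 1 are given with and without it. The labelled tissues were checked against marker genes. All 9 alveolar type II markers were higher in adult lung than in adult mammary. Their median level lay at -2.74 to -2.15 in reprogrammed lung, at 2.81 to 3.00 in adult lung and at -2.97 to -1.86 in adult mammary, so the arrays labelled reprogrammed lung lay in the range of mammary for these markers. The median of 8 milk and luminal genes lay at -1.58 to 3.69 in reprogrammed lung, at 1.36 to 2.90 in reprogrammed mammary, at -7.11 to -5.77 in adult lung and at -0.30 to 1.46 in adult mammary.

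Adult lung held the lowest mean level of 9 of the 10 enzymes, an order of means that carries no test. How many of all features share that order was not counted. By limma, 4 of the 10 were called lower in adult lung against reprogrammed lung, 5 against reprogrammed mammary and 3 against adult mammary, as given below. Of all features 14.1%, 14.9% and 15.9% were called in that direction. Aldoa, the aldolase that splits fructose-1,6-bisphosphate, was not lowest in adult lung, and adult mammary had its lowest mean. For Pkm, pyruvate kinase, the low mean of adult lung rests on few arrays, since on 6 of the 12 the spot carried the scanner's outlier mark and gave no value.

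**Figure D1:**
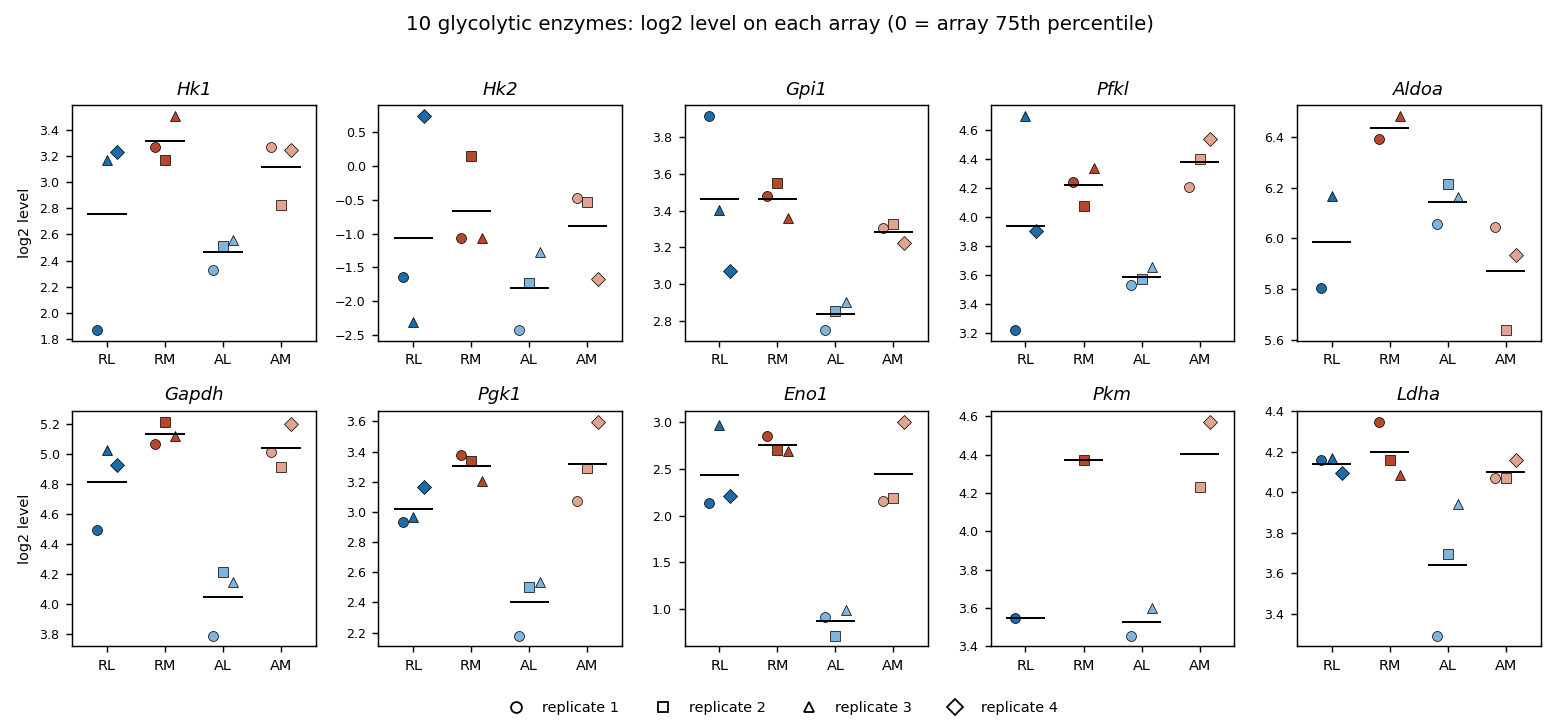
Log2 level of each of the 10 glycolytic enzymes on each array (y axis, 0 is the 75th percentile of the array), for reprogrammed lung (RL), reprogrammed mammary (RM), adult lung (AL) and adult mammary (AM). Each point is 1 array, its shape gives the replicate number, and the black line is the group mean. The 3 adult lung arrays of Eno1 lie at 0.72 to 0.99, below all other arrays, while Aldoa shows no low adult lung group.

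Eno1, the enolase that makes phosphoenolpyruvate, had the largest differences from adult lung. Its level was 2.13, 2.98 and 2.21 in reprogrammed lung, 2.85, 2.71 and 2.70 in reprogrammed mammary, 0.92, 0.72 and 0.99 in adult lung and 2.16, 2.19 and 3.01 in adult mammary. All 9 arrays of the other groups lay above the 3 adult lung arrays. Gapdh, which makes the NADH of the pathway, had 4.49, 5.03 and 4.93 in reprogrammed lung, 5.07, 5.22 and 5.12 in reprogrammed mammary, 3.79, 4.21 and 4.15 in adult lung and 5.01, 4.92 and 5.20 in adult mammary. The adult lung arrays again lay below all others. Pgk1, the kinase of the first ATP-yielding step, had 2.93, 2.97 and 3.17 in reprogrammed lung, 3.38, 3.34 and 3.20 in reprogrammed mammary, 2.18, 2.50 and 2.54 in adult lung and 3.07, 3.29 and 3.60 in adult mammary. No adult lung array reached any other array.

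Ldha, the lactate dehydrogenase subunit that favours lactate, was even across 3 groups by its brightest probe. Its second probe was lower than in adult mammary by 0.37 in reprogrammed mammary and by 0.43 in reprogrammed lung, neither called. The values of the brightest probe follow. It had 4.16, 4.17 and 4.09 in reprogrammed lung, 4.35, 4.16 and 4.09 in reprogrammed mammary, 3.29, 3.70 and 3.94 in adult lung and 4.07, 4.07 and 4.16 in adult mammary. The adult lung arrays were the most spread and lay below all others, while the other 3 groups overlapped. Gpi1, which turns glucose-6-phosphate into fructose-6-phosphate, had 3.91, 3.40 and 3.07 in reprogrammed lung, 3.48, 3.55 and 3.36 in reprogrammed mammary, 2.75, 2.85 and 2.90 in adult lung and 3.30, 3.33 and 3.22 in adult mammary. Its highest value of all 12 arrays was that of reprogrammed lung replicate 1. Pkm, with its marked spots kept, had 3.55, 4.30 and 4.29 in reprogrammed lung, 4.46, 4.37 and 4.50 in reprogrammed mammary, 3.46, 3.55 and 3.60 in adult lung and 4.22, 4.23 and 4.57 in adult mammary. With the marks applied, it kept 1 array in each reprogrammed group and 2 in each adult group, and the fitted values below use those arrays alone.

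The kinases of the first steps varied most within groups. Hk1, the hexokinase found in most tissues, had 1.87, 3.17 and 3.23 in reprogrammed lung, 3.27, 3.17 and 3.50 in reprogrammed mammary, 2.33, 2.51 and 2.55 in adult lung and 3.27, 2.83 and 3.25 in adult mammary. Pfkl, the liver-type phosphofructokinase, had 3.22, 4.69 and 3.90 in reprogrammed lung, 4.24, 4.08 and 4.34 in reprogrammed mammary, 3.54, 3.57 and 3.66 in adult lung and 4.21, 4.40 and 4.54 in adult mammary. For both genes reprogrammed lung replicate 1 lay below every adult lung array, and the other 2 reprogrammed lung arrays lay above every one. Hk2, the insulin-responsive hexokinase, had -1.64, -2.31 and 0.73 in reprogrammed lung, -1.07, 0.15 and -1.06 in reprogrammed mammary, -2.43, -1.73 and -1.27 in adult lung and -0.48, -0.53 and -1.67 in adult mammary. Its groups overlapped. Aldoa had 5.80 and 6.17 in reprogrammed lung, 6.39 and 6.48 in reprogrammed mammary, 6.06, 6.21 and 6.16 in adult lung and 6.04, 5.64 and 5.94 in adult mammary, with 1 array lost to the outlier mark in each reprogrammed group.

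Letters known as the core of the hypoxia-inducible factor element, ACGTG and GCGTG, were searched in the promoters of the 10 enzymes, on both strands, in the 250 bases before the RefSeq start (GRCm38.p6). All 10 were matched by symbol, with 17 starts. The promoters of Eno1, Gapdh, Pgk1, Gpi1 and Ldha are printed at their first listed start. These are the 5 enzymes whose 3 adult lung arrays all lay below every other array. How many of all features share that order was not counted, so the 5 are a choice for printing and not a result. They run 5′ to 3′ on the strand of the gene, and capitals mark the motif or its reverse complement. In the letters CACGTG the motif and its complement overlap and are counted once each.
Eno1 (chr4:150236458-150236707, plus strand): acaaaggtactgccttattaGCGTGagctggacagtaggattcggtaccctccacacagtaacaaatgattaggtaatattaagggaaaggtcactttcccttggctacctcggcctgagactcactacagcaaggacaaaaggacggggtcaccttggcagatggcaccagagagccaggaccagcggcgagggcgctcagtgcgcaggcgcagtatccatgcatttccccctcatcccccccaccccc
Gapdh (chr6:125165774-125166023, minus strand): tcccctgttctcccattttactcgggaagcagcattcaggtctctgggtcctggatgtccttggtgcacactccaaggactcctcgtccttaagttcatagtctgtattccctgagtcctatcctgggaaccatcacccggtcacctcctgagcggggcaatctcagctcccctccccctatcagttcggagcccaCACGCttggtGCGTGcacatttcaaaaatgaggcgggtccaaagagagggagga
Pgk1 (chrX:106186850-106187099, plus strand): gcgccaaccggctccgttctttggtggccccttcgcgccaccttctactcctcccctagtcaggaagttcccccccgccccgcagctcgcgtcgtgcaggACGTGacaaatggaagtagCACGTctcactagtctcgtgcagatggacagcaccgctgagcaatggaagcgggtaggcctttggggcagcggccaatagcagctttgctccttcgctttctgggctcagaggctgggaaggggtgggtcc
Gpi1 (chr7:34230337-34230586, minus strand): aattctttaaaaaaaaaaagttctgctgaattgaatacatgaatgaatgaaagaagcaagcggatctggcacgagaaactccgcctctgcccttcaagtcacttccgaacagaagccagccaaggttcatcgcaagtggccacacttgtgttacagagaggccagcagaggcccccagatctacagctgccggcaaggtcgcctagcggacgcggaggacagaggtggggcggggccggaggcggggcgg
Ldha (chr7:46845554-46845803, plus strand): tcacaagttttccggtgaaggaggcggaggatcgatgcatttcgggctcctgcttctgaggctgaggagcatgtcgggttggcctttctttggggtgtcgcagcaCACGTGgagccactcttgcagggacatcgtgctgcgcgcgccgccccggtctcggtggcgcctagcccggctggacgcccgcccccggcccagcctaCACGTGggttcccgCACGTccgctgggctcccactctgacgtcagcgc

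At these starts Ldha held 5 matches, Gapdh and Pgk1 2 each, Eno1 1 and Gpi1 none. At their first listed start, 6 of the 10 enzymes held at least 1 match of either motif. Over all listed starts, some of which overlap, 13 of 17 did, and 38.6% of the 32851 promoters of all genes. Hk1, Aldoa and Pkm held a match only at a later listed start. At the first listed start ACGTG was held by 3 of the 10, and over all listed starts by 16.6% of all promoters. GCGTG was held at the first listed start by 3 of the 10, and over all listed starts by 28.2% of all promoters. A match is a description of letters and not of binding, and binding was not measured in these samples.

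Reprogrammed lung was compared with adult lung first. Eno1, Gapdh, Pgk1 and Gpi1 were higher in reprogrammed lung, and none of the 10 enzymes was lower. That is 4 of 10 called higher, where 14.1% of all 24504 features were called higher and 9.31% lower. The median difference of the 10 enzymes was 0.56, against 0.10 over all features tested, and 9 of the 10 differences were positive. Eno1 differed by 1.56 with a standard error of 0.28 (2.96-fold, limma, adjusted p = 0.0026). Gapdh differed by 0.77 with a standard error of 0.19 (1.70-fold, limma, adjusted p = 0.0144). Pgk1 differed by 0.62 with a standard error of 0.18 (1.53-fold, limma, adjusted p = 0.0313), and its second probe by 0.53. Gpi1 differed by 0.63 with a standard error of 0.20 (1.55-fold, limma, adjusted p = 0.0471).

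Ldha, at a difference of 0.50, missed the threshold (limma, adjusted p = 0.0703), although its reprogrammed lung arrays all lay above its adult lung arrays. It passed in 2 of 28 alternatives. The differences of the remaining enzymes were 0.73 for Hk2, 0.35 for Pfkl, 0.29 for Hk1, 0.02 for Pkm and -0.16 for Aldoa, and none passed. Their 95% intervals ran from -0.85 to 2.32 for Hk2, from -0.32 to 1.02 for Pfkl, from -0.43 to 1.01 for Hk1, from -0.85 to 0.89 for Pkm and from -0.62 to 0.30 for Aldoa. The Pkm value rests on 1 reprogrammed lung array and 2 adult lung arrays, and it was -0.51 with each array centred on its median and 0.51 with the marked spots kept. Aldoa stood at 0.06 with the normexp background correction, so the sign of these 2 genes depends on the processing. Hk2 stood at -0.17 without reprogrammed lung replicate 4, and Pfkl at -0.03 without reprogrammed lung replicate 3.

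The 4 calls were not equally firm. Eno1 was called in all 28 alternatives to the processing, Gapdh in 23, Pgk1 in 17 and Gpi1 in 7. Without adult lung replicate 1 only Eno1 was called, and leaving out any of 11 single arrays ended the call of Gpi1. Centring each array on its median took 0.15 from the enzyme differences, and Eno1 alone was then called. Without reprogrammed lung replicate 1, 5 of the 9 enzymes that could be tested were called, against 16.3% of all features called higher and 13.3% lower. Hk1 (0.74, limma, adjusted p = 0.0135) and Pfkl (0.71, limma, adjusted p = 0.0397) then passed, and Gpi1 did not (0.40, limma, adjusted p = 0.0686). On the 3 slides that held an array of both groups, the difference was 2.06, 1.14 and 1.49 for Eno1, 1.24, 0.34 and 0.72 for Gapdh and 0.79, 0.40 and 0.67 for Pgk1.

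**Figure D2:**
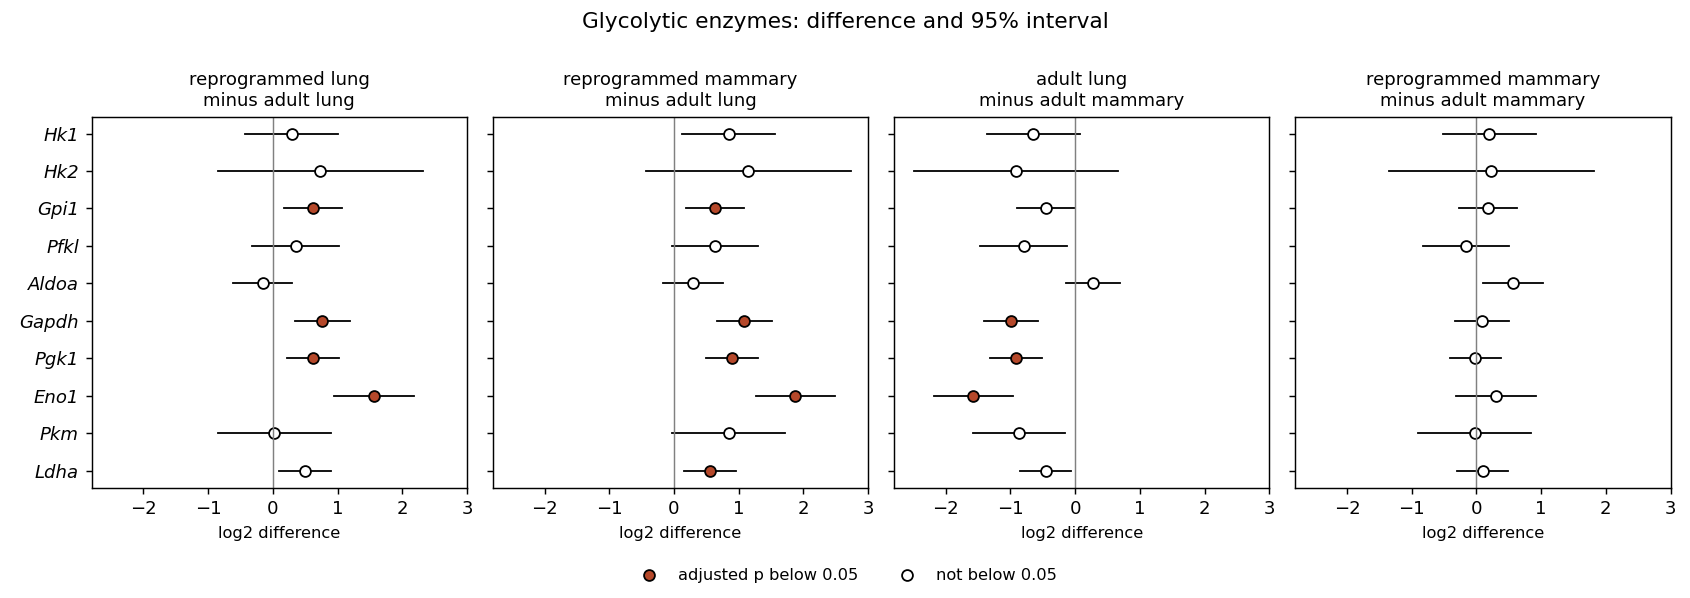
Log2 difference (x axis) of each of the 10 enzymes in 4 comparisons, with its 95% interval from the fit over all arrays. Filled points had an adjusted p below 0.05. Eno1, Gapdh and Pgk1 are filled in the 3 comparisons that involve adult lung, and no point is filled between reprogrammed and adult mammary.

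Reprogrammed mammary was also set against adult lung. Here 5 of the 10 enzymes were higher, where 14.9% of all features were called higher and 11.2% lower. They were the 5 enzymes whose promoters are printed, Eno1 (1.88, 3.67-fold, limma, adjusted p = 0.000796), Gapdh (1.09, 2.13-fold, limma, adjusted p = 0.00197), Pgk1 (0.90, 1.87-fold, limma, adjusted p = 0.00435), Gpi1 (0.63, 1.55-fold, limma, adjusted p = 0.0426) and Ldha (0.56, 1.47-fold, limma, adjusted p = 0.0431). Eno1 was called in all 28 alternatives, Gapdh and Pgk1 in 27 each, Gpi1 in 14 and Ldha in 11. Hk1 had a difference of 0.85 that missed the threshold (limma, adjusted p = 0.0807), and of its 3 other tested probes, in a fit over all probes, 1 passed at 0.92 (limma, adjusted p = 0.00423) and those at 0.72 each did not (limma, adjusted p = 0.158 and 0.113). The second probe of Ldha did not pass either, at 0.53 (limma, adjusted p = 0.142). Pkm at 0.85, Pfkl at 0.63, Hk2 at 1.15 and Aldoa at 0.29 did not pass. The median of the 10 differences was 0.85, against 0.04 over all features. On the 1 slide that held arrays of both groups the differences were 1.99 for Eno1, 1.01 for Gapdh, 0.83 for Pgk1, 0.70 for Gpi1 and 0.47 for Ldha. The fit without reprogrammed lung replicate 1 called 7 of the 10 higher, with 19.8% of all features called higher and 15.5% lower.

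Between the adult organs, adult lung had lower levels of 3 of the 10 enzymes than adult mammary and higher levels of none. Over all features 15.9% were called lower in adult lung and 12.5% higher. Eno1 fell by 1.58 with a standard error of 0.28 (2.98-fold lower, limma, adjusted p = 0.00211). Gapdh fell by 0.997 with a standard error of 0.19 (1.996-fold lower, limma, adjusted p = 0.00325). Pgk1 fell by 0.91 with a standard error of 0.18 (1.88-fold lower, limma, adjusted p = 0.00396). Each of the 3 was called in 27 of 28 alternatives and was lost with slide as a fixed block. On the 1 slide that held both adult organs, the differences were -1.27 for Eno1, -1.13 for Gapdh and -1.11 for Pgk1. Pfkl at -0.79, Pkm at -0.87, Ldha at -0.46, Hk1 at -0.65, Gpi1 at -0.45 and Hk2 at -0.92 missed the threshold, and Aldoa stood at 0.27. The probes of Ldha disagreed, since its second probe passed at -0.90 in a fit over all probes (limma, adjusted p = 0.0199). Without reprogrammed lung replicate 1, which is in neither group but enters the shared estimate of the spread, 7 enzymes were called lower, with Hk1, Gpi1, Pfkl and Pkm added, and 21.2% of all features were called lower. The median of the 10 differences was -0.83, against 0.00 over all features. These comparisons share the adult lung arrays, so their values are not independent of each other.

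No enzyme was called between reprogrammed and adult mammary by limma, and 1, Aldoa, had an unadjusted p under 0.05. Over all features 0.00408% were called there, which is 1 feature, against 82 without both narrow arrays and 348 with array weights. The difference was 0.57 for Aldoa (95% interval 0.10 to 1.03, limma, adjusted p = 0.41), 0.30 for Eno1, 0.23 for Hk2, 0.20 for Hk1, 0.18 for Gpi1, 0.10 for Ldha, 0.09 for Gapdh, -0.01 for Pgk1, -0.03 for Pkm and -0.16 for Pfkl. The intervals of Gapdh (-0.33 to 0.51), Pgk1 (-0.41 to 0.39) and Ldha (-0.30 to 0.50) bound their differences most closely. The second probe of Ldha stood outside that interval, at -0.37. On the 2 slides that held both groups, Eno1 differed by 0.70 and -0.31, Gapdh by 0.05 and -0.08 and Pgk1 by 0.31 and -0.40.

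Reprogrammed lung against adult mammary gave no call among the 10 by limma, and none had an unadjusted p under 0.05, with 0.0286% of all features called. Eno1 differed by -0.01 (95% interval -0.63 to 0.60), Gapdh by -0.23 (95% interval -0.65 to 0.19) and Pgk1 by -0.30 (95% interval -0.70 to 0.10). The others ran from -0.85 for Pkm, over -0.44 for Pfkl, -0.36 for Hk1, -0.18 for Hk2, 0.04 for Ldha and 0.11 for Aldoa, to 0.18 for Gpi1. Without reprogrammed lung replicate 1, the difference was 0.09 for Hk1, -0.08 for Pfkl, -0.07 for Gapdh and -0.05 for Gpi1. The Pkm value rests on that array alone in reprogrammed lung, and it was -0.30 with the marked spots kept. Between reprogrammed lung and reprogrammed mammary 0.00816% of all features were called, and none of the 10 enzymes had even an unadjusted p under 0.05. All 10 differences lay below 0, at -0.82 for Pkm, -0.55 for Hk1, -0.45 for Aldoa, -0.41 for Hk2, -0.32 for Gapdh, -0.31 for Eno1, -0.28 for Pfkl and Pgk1, -0.06 for Ldha and -0.002 for Gpi1. Without reprogrammed lung replicate 1, Hk1 differed by -0.11, Aldoa by -0.27, Hk2 by -0.13, Gapdh and Eno1 by -0.16 and Pfkl by 0.08. Pkm, which could not be tested without that array, stood at -0.39 with the marked spots kept. The differences of Hk2, Pfkl, Ldha and Gpi1 changed sign under some alternatives. Their intervals, such as -0.74 to 0.10 for Gapdh, do not show that the groups are alike.

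The change in lung (reprogrammed minus adult) was tested against the change in mammary. None of the 10 enzymes passed, where 12.8% of all features did. Eno1 came nearest, at 1.26 (limma, adjusted p = 0.0609), followed by Gapdh at 0.67 (limma, adjusted p = 0.132) and Pgk1 at 0.63 (limma, adjusted p = 0.138). Aldoa had a difference of changes of -0.72 (limma, adjusted p = 0.142). The others stood at 0.51 for Pfkl, 0.50 for Hk2, 0.45 for Gpi1, 0.40 for Ldha, 0.09 for Hk1 and 0.05 for Pkm. Eno1, Gapdh, Pgk1 and Aldoa were the 4 with an unadjusted p under 0.05. Without reprogrammed lung replicate 1, Eno1 (1.41, limma, adjusted p = 0.0322) and Gapdh (0.84, limma, adjusted p = 0.0277) were called. Calls over all features rose as well with both narrow arrays left out, to 5713 of 24494, against 3137 as reported. That fit also leaves out adult mammary replicate 4, and whether the 2 calls are particular to the enzymes was not tested.

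**Figure D3:**
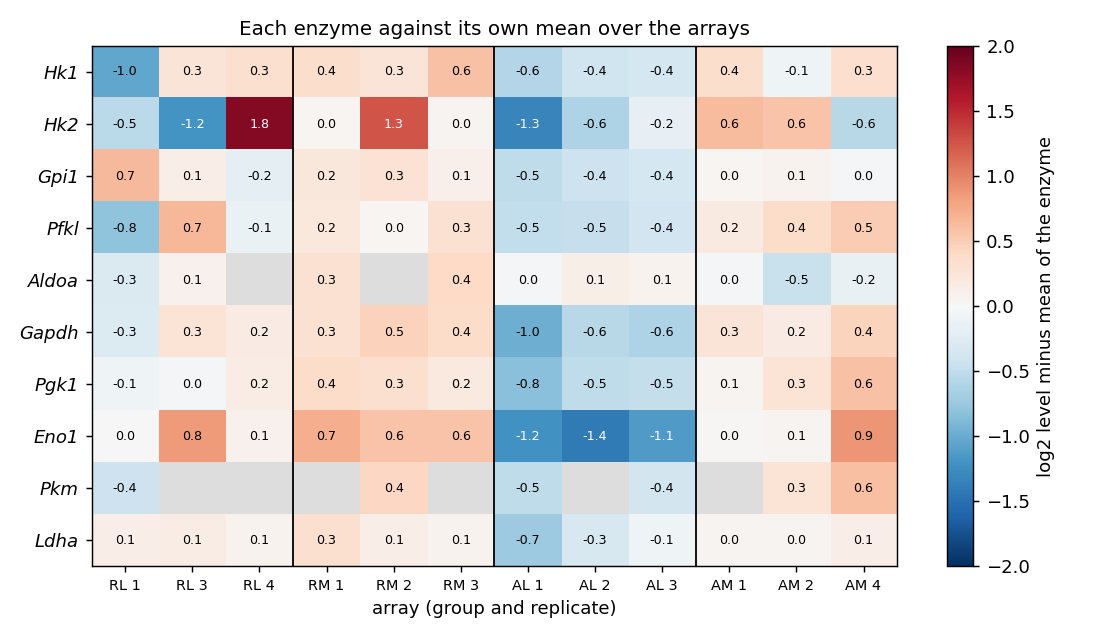
Log2 level of each enzyme minus its own mean over the arrays (colour and printed value), for each array in the groups RL (reprogrammed lung), RM (reprogrammed mammary), AL (adult lung) and AM (adult mammary). Grey cells had no value because of the outlier mark. The 3 adult lung columns are blue for most enzymes, Aldoa excepted, and Hk2 has the widest spread within groups.

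The enzymes differed in how closely they followed each other. The median over the 10 enzymes of their centred level was -0.28, 0.15 and 0.12 on the reprogrammed lung arrays, 0.31, 0.32 and 0.30 on the reprogrammed mammary arrays, -0.66, -0.46 and -0.36 on the adult lung arrays and 0.06, 0.11 and 0.39 on the adult mammary arrays. Gapdh and Pgk1 lay closest to the mean of the 10, with a root mean square difference of 0.13 and 0.15 over the arrays, and Hk2 at 0.74 and Eno1 at 0.49 lay farthest. Differences between the group means held 87.3% of the variance of Gapdh, 87.2% of that of Eno1 and 86.0% of that of Pgk1, but 22.3% of that of Hk2. The search for genes of like pattern took 12900 other genes with a symbol, a value and a signal well above background on every array. The 5 closest to the mean of the enzymes were Ndufs4 and Denr (root mean square difference 0.107 each), Cox8a (0.113), Cox5b (0.116) and Mdh1 (0.122), over 12 arrays. Ndufs4 is a subunit of respiratory complex I, Cox8a and Cox5b are subunits of cytochrome c oxidase, Mdh1 is the cytosolic malate dehydrogenase, and Denr takes part in starting and recycling ribosomes.

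Isozymes were compared as differences between 2 probes, whose absolute value depends on the probes and was compared only between groups. Hk2 minus Hk1 averaged -3.83 ± 1.52 in reprogrammed lung and -4.27 ± 0.47 in adult lung (SD, n = 3 each, exact two-sided permutation test, p = 0.6). It averaged -3.97 ± 0.83 in reprogrammed mammary and -4.01 ± 0.81 in adult mammary (SD, n = 3 each, exact two-sided permutation test, p = 1). Ldhb is the lactate dehydrogenase subunit that favours pyruvate. Ldha minus Ldhb was 4.75, 2.06 and 2.04 in reprogrammed lung and 1.85, 1.76 and 2.32 in adult lung (exact two-sided permutation test, p = 0.4). The high value came from reprogrammed lung replicate 1, where Ldhb stood at -0.59, and the difference of 0.97 between the groups dropped to 0.07 without it. In reprogrammed mammary the balance averaged 2.45 ± 0.26, and in adult mammary 2.23 ± 0.36 (SD, n = 3 each, exact two-sided permutation test, p = 0.5). With 3 arrays against 3 this exact permutation test cannot go below p = 0.1.

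The genes around the 10 enzymes were read from 9 pathway lists. Of all features, 14.1% were called higher and 9.31% lower in reprogrammed against adult lung. Without reprogrammed lung replicate 1 these shares were 16.3% and 13.3%. Some counts below lie near the shares of all features, and no list was tested as a set. Of 17 other glycolytic enzymes and isozymes tested, 2 were higher in reprogrammed lung than in adult lung and none lower, and the list's median difference was 0.40. The 17 gave 3 higher and none lower without reprogrammed lung replicate 1. Aldoc, the brain-type aldolase, had -0.42, 2.68 and 1.81 in reprogrammed lung and -1.09, -1.44 and -1.26 in adult lung (difference 2.62, limma, adjusted p = 0.0107). Eno2, the neuronal enolase, had 0.07, -1.29 and 0.41 in reprogrammed lung and -1.98, -2.38 and -2.58 in adult lung (difference 2.04, limma, adjusted p = 0.00622). In both genes no reprogrammed lung array overlapped adult lung, and the lowest Aldoc value was that of replicate 1. Tpi1, triose phosphate isomerase, missed the threshold at 0.88 (limma, adjusted p = 0.0567) and passed without reprogrammed lung replicate 1 at 1.27 (limma, adjusted p = 0.000807). Pgam1, phosphoglycerate mutase, stood at 0.40, Pfkp at 0.33, Pfkm at 0.07, Hk3 at 0.40 and Ldhb at -0.47, and none passed.

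Between the adult organs, 4 of these 17 genes were lower in adult lung than in adult mammary and 1 was higher. Of all features 15.9% were lower and 12.5% higher. Aldoc fell by 3.17 (limma, adjusted p = 0.00341), Eno2 by 1.40 (limma, adjusted p = 0.0325), Tpi1 by 1.26 (limma, adjusted p = 0.0102) and Pgam1 by 0.69 (limma, adjusted p = 0.0319). Tpi1 had 1.63, 1.71 and 1.98 in adult lung and 2.99, 2.82 and 3.28 in adult mammary, with no overlap. The calls of Eno2 and Pgam1 held in 19 and 17 of 28 alternatives. Gapdhs, the sperm form of glyceraldehyde-3-phosphate dehydrogenase, was the gene called higher, by 0.58 (limma, adjusted p = 0.0459), and it was named after its value was seen.

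**Figure D4:**
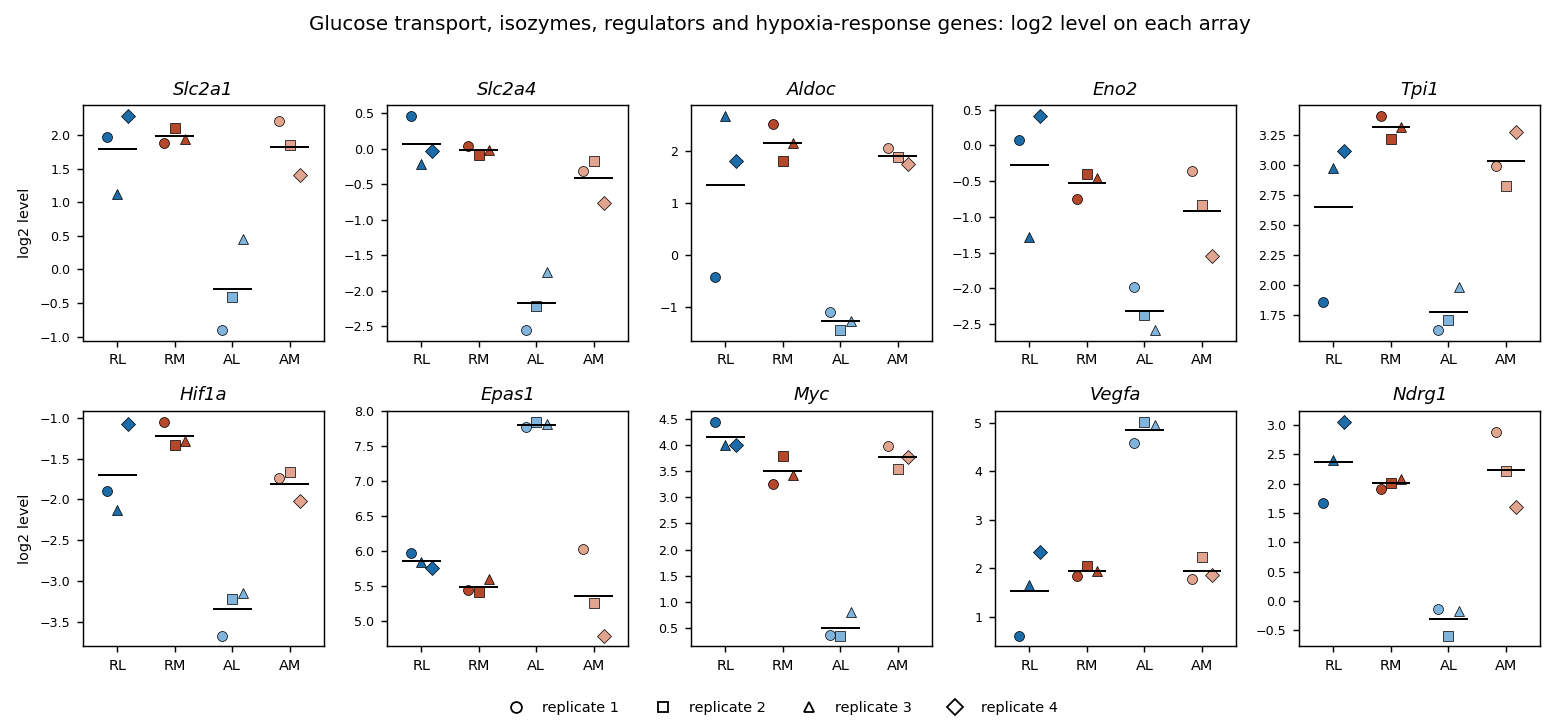
Log2 level on each array (y axis, 0 is the 75th percentile of the array) of 2 glucose transporters, 3 other glycolytic enzymes, 3 regulators and 2 hypoxia-response genes, for reprogrammed lung (RL), reprogrammed mammary (RM), adult lung (AL) and adult mammary (AM). Points are arrays, shapes are replicate numbers and lines are group means. Adult lung is lowest for Slc2a1, Slc2a4, Hif1a and Myc and highest for Epas1 and Vegfa.

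Glucose enters cells through transporters of the Slc2 and Slc5 families, and lactate passes through those of the Slc16 family. Of 17 transporters tested, 5 were higher in reprogrammed lung than in adult lung and 1 was lower, with a list median of 0.34. The shares of all features were 14.1% higher and 9.31% lower. The lower gene was Slc16a7, a monocarboxylate transporter (-0.90, limma, adjusted p = 0.0101), named after its value was seen. Slc2a1, the widespread glucose transporter GLUT1, had 1.96, 1.13 and 2.28 in reprogrammed lung and -0.90, -0.41 and 0.45 in adult lung (difference 2.08, limma, adjusted p = 0.00308). Slc2a4, the insulin-responsive GLUT4, had 0.46, -0.21 and -0.03 in reprogrammed lung and -2.56, -2.22 and -1.74 in adult lung (difference 2.24, limma, adjusted p = 0.000223). Neither gene overlapped between the groups, and both were called in all 28 alternatives. Slc5a1, a sodium-coupled glucose transporter, was at least 3.56-fold higher in reprogrammed lung (limma, adjusted p = 0.00387), with 3 arrays above background against 1 in adult lung. Slc2a5, a fructose transporter, was at least 1.75-fold higher (limma, adjusted p = 0.0238), again with 3 arrays above background against 1. Both of these differences turned round under the normexp background correction, to -0.02 for Slc5a1 and -0.44 for Slc2a5. Slc2a3 at 0.46 and Slc16a3, a lactate exporter, at 0.29 did not pass. Without reprogrammed lung replicate 1 the call of Slc2a5 was lost (log2 difference 1.75, limma, adjusted p = 0.0621), and it held in 17 of 27 alternatives. Of the 17 transporters 4 were higher and 2 lower without that array, against 16.3% and 13.3% of all features.

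Set against adult mammary, adult lung had lower levels of 5 of the 17 transporters and higher levels of 2. The shares of all features were 15.9% lower and 12.5% higher. Slc2a1 fell by 2.11 (limma, adjusted p = 0.00242), Slc2a4 by 1.75 (limma, adjusted p = 0.000733) and Slc2a3 by 0.85 (limma, adjusted p = 0.049). The call of Slc2a3 held in 12 of 28 alternatives, with differences from -1.03 to -0.35. Slc5a1 was at least 4.17-fold lower in adult lung (limma, adjusted p = 0.00208), but its difference stood at -0.01 under normexp, where it was not called. Slc2a2, the liver and islet transporter, was higher in adult lung by 1.82 (limma, adjusted p = 0.0465), a call that held in 17 of 28 alternatives. Between reprogrammed and adult mammary, where 0.00408% of all features were called, no gene of any of the 9 lists was. Slc2a1 differed by 0.15 there.

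Regulators moved both ways. Of 17 tested, 3 were higher and 3 lower in reprogrammed lung than in adult lung, with a list median of -0.10. Among all features 14.1% were higher and 9.31% lower. Myc, a transcription factor that raises many glycolytic genes, had 4.44, 4.00 and 4.00 in reprogrammed lung and 0.37, 0.36 and 0.82 in adult lung (difference 3.63, limma, adjusted p = 7.06e-06). Hif1a, the hypoxia-inducible factor subunit tied to glycolytic genes, had -1.90, -2.13 and -1.08 in reprogrammed lung and -3.67, -3.23 and -3.15 in adult lung (difference 1.65, limma, adjusted p = 0.00168). Epas1, the related subunit HIF-2 alpha, went the other way, with 5.98, 5.85 and 5.75 in reprogrammed lung and 7.77, 7.85 and 7.82 in adult lung (difference -1.95, limma, adjusted p = 0.000566). No array of these 3 genes overlapped between the groups. Hif1a was near the dim end of the array and dropped to 0.31 under the normexp correction, where it was not called, while Myc and Epas1 were called in all 28 alternatives. Pdk4, a kinase that turns off pyruvate dehydrogenase, was higher by 2.00 (limma, adjusted p = 0.00745), and Pdk1 at 0.27 and Pfkfb3 at 0.03 did not pass.

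Between the adult organs, 3 of the 17 regulators were higher and 4 lower in adult lung than in adult mammary. Among all features 12.5% were higher and 15.9% lower. Myc fell by 3.25 (limma, adjusted p = 9.48e-06) and Hif1a by 1.54 (limma, adjusted p = 0.00207), while Epas1 was 2.45 higher (limma, adjusted p = 0.000145) and Pfkfb4 1.86 higher (limma, adjusted p = 0.00585). The difference of Hif1a stood at -0.16 under normexp, where it was not called. Egln3, a prolyl hydroxylase that marks the factors for decay, had -4.43, -4.54 and -0.56 in adult lung and 1.08, 0.62 and -0.79 in adult mammary. Its difference of -3.48 passed (limma, adjusted p = 0.0371), although 1 adult lung array overlapped adult mammary, and the call held in 15 of 28 alternatives.

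Hypoxia-response genes outside glycolysis did not share a direction. Of 15 tested, 3 were higher and 3 lower in reprogrammed lung than in adult lung, with a list median of -0.47. The shares of all features were 14.1% higher and 9.31% lower. Vegfa, the angiogenic growth factor, had 0.61, 1.66 and 2.35 in reprogrammed lung and 4.59, 5.02 and 4.96 in adult lung (difference -3.32, limma, adjusted p = 0.000173). Ndrg1, a stress-responsive gene, had 1.68, 2.40 and 3.06 in reprogrammed lung and -0.14, -0.60 and -0.18 in adult lung (difference 2.68, limma, adjusted p = 0.000682). Ddit4, an inhibitor of mTOR signalling, was 2.01 higher (limma, adjusted p = 0.00157), and P4ha1, a collagen prolyl hydroxylase, differed by -1.37 (limma, adjusted p = 0.00763). Between the adult organs 4 were higher and 3 lower in adult lung, where 12.5% and 15.9% of all features were called so. Vegfa was 2.90 higher there (limma, adjusted p = 0.000307), and Ndrg1 fell by 2.53 (limma, adjusted p = 0.000793) and Ddit4 by 1.57 (limma, adjusted p = 0.00509). Car9, a carbonic anhydrase, was above background on 2 of 3 adult lung arrays and at least 3.55-fold lower in adult lung (limma, adjusted p = 0.00229), a difference that stood at 0.08 under normexp.

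**Figure D5:**
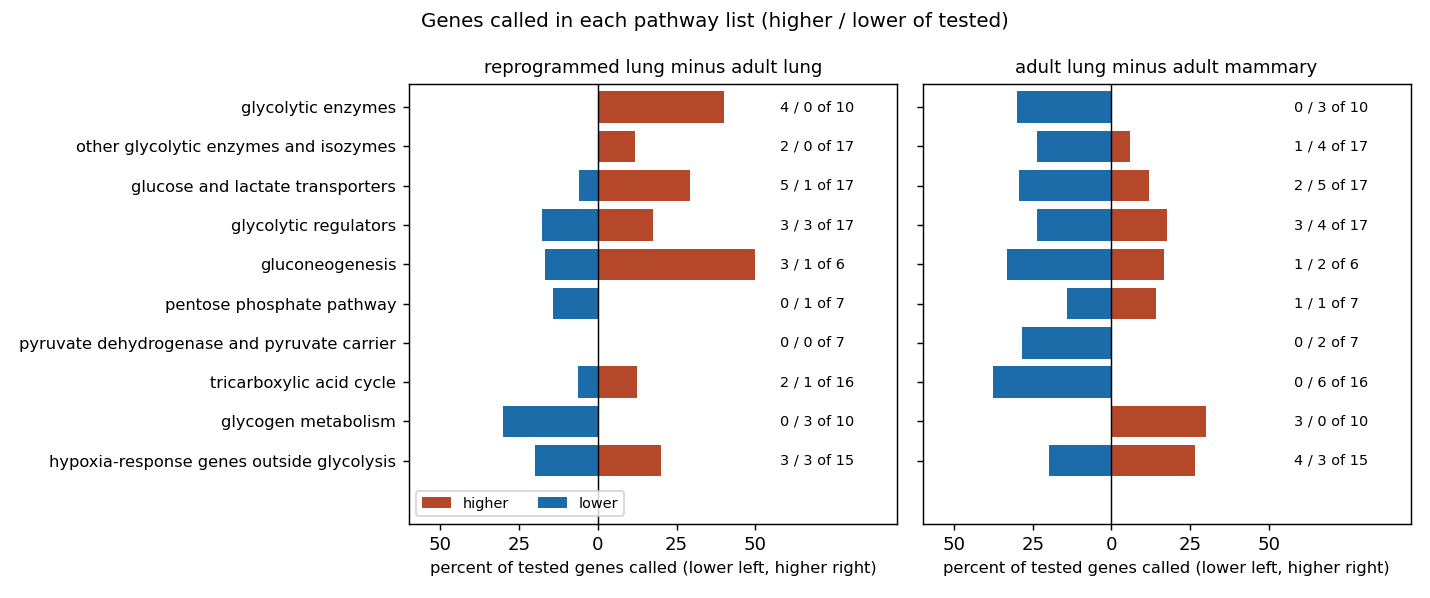
Share of the tested genes of each list called higher (right) or lower (left) in reprogrammed lung against adult lung and in adult lung against adult mammary, as percent of the genes tested (x axis). The printed counts are genes higher, genes lower and genes tested. The glycolytic enzymes have 4 higher and 0 lower of 10 in the left panel and 0 higher and 3 lower of 10 in the right panel. Over all features 14.1% were higher and 9.31% lower in the left comparison, and 12.5% higher and 15.9% lower in the right.

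The pathways that branch from glycolysis were read the same way. The shares of all features were 14.1% higher and 9.31% lower in reprogrammed against adult lung. They were 16.3% and 13.3% without reprogrammed lung replicate 1. In adult lung against adult mammary 12.5% were higher and 15.9% lower. Of 16 genes of the tricarboxylic acid cycle, 2 were higher in reprogrammed lung than in adult lung (Sdhd by 0.58 and Idh3g by 0.50) and 1 was lower (Ogdh, -0.47, called in 8 of 28 alternatives). Without reprogrammed lung replicate 1, 7 of the 16 were higher and none lower. Between the adult organs, 6 of the 16 were lower in adult lung and none higher, among them Suclg2 (-1.44, limma, adjusted p = 0.0132), Fh1 (-1.12, limma, adjusted p = 0.0153) and Idh3a (-0.995, limma, adjusted p = 0.00619). None of the 7 genes of pyruvate dehydrogenase and the pyruvate carrier was called in reprogrammed against adult lung. Without reprogrammed lung replicate 1, 2 of these 7 were higher there and none lower. Between the adult organs 2 were lower in adult lung than in adult mammary, Pdha1 (-1.15) and Dld (-0.68). Of 7 genes of the pentose phosphate pathway, 2 were higher and 1 lower in reprogrammed against adult lung without reprogrammed lung replicate 1. With that replicate in the fit, 1 of the 7 was called. It was H6pd, the enzyme of the endoplasmic reticulum, at 1.32, 1.04 and 1.99 in reprogrammed lung and 3.47, 3.43 and 3.33 in adult lung (difference -1.96, limma, adjusted p = 0.00049). In adult lung against adult mammary H6pd was 2.64 higher and Tkt, transketolase, fell by 0.83.

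Of 10 glycogen genes, 3 were lower in reprogrammed lung than in adult lung and none higher, against 9.31% and 14.1% of all features. They were Gyg, the glycogenin primer (-1.46, limma, adjusted p = 0.00758), Gbe1, the branching enzyme (-1.17, limma, adjusted p = 0.00191), and Pygm, the muscle phosphorylase (-0.94, limma, adjusted p = 0.0264). Without reprogrammed lung replicate 1, 2 of the 10 were higher and 3 lower, against 16.3% and 13.3% of all features. Pygm then lost its call (-0.71, limma, adjusted p = 0.0568), which held in 17 of 28 alternatives. In the fit of all arrays, Gyg, Gbe1 and Pygm were also those called higher in adult lung than in adult mammary, by 2.24, 0.72 and 1.36. There 12.5% of all features were called higher. Of 6 genes of gluconeogenesis, 3 were higher and 1 lower in reprogrammed lung than in adult lung, against 14.1% and 9.31% of all features. Fbp2, the muscle fructose bisphosphatase, differed by -2.24 (limma, adjusted p = 0.00392) and Fbp1, the liver form, by 1.33 (limma, adjusted p = 0.0058), but the difference of Fbp1 stood at -0.02 under normexp. Pck2 was higher by 1.15 and G6pc3 0.57 higher, the last a call that held in 10 of 28 alternatives. In adult lung against adult mammary, Fbp2 was 2.07 higher, and Pck2 at -1.70 and G6pc3 at -0.72 were lower.

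Markers of several cell types differed between the groups, not always as the enzymes did, and their part in the enzyme results was not tested. Their counts stand against all features, of which 14.1% were higher and 9.31% lower in reprogrammed against adult lung. Without reprogrammed lung replicate 1 these shares were 16.3% and 13.3%. In adult lung against adult mammary 12.5% were higher and 15.9% lower. Of 10 pan-epithelial markers, 4 were higher and none lower in reprogrammed lung than in adult lung (8 and none without reprogrammed lung replicate 1), and 7 were lower in adult lung than in adult mammary. Their median level was 0.05 to 3.32 in reprogrammed lung, 3.21 to 3.65 in reprogrammed mammary, 0.80 to 1.17 in adult lung and 3.39 to 4.13 in adult mammary. The value of 0.05 was that of reprogrammed lung replicate 1. Of 8 endothelial markers, 7 were lower in reprogrammed lung than in adult lung and 7 were higher in adult lung than in adult mammary, with medians of 1.82 to 2.22 in reprogrammed lung, 1.26 to 1.62 in reprogrammed mammary, 4.22 to 4.39 in adult lung and 0.66 to 1.95 in adult mammary. Of 10 cell cycle genes none was called in reprogrammed against adult lung and 4 were lower in adult lung than in adult mammary. Of 11 dissociation and immediate-early genes 2 were higher in reprogrammed lung (6 without its replicate 1), with medians of 4.31 to 5.38 in reprogrammed lung and 3.94 to 4.06 in adult lung. In these bulk preparations fewer cells of a type and less RNA per cell cannot be told apart. Gapdh, Ldha and Pgk1 have processed copies elsewhere in the mouse genome, and whether the probes also bind their transcripts was not tested.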

How the data were processed

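Total RNA of 12 samples was labelled with Cy3 and hybridised to 1-colour Agilent arrays. The deposited scanner files hold intensities per spot, background-subtracted by the authors with Agilent Feature Extraction, version 10.5.1.1 per the file headers and 10.1 per the submitters' processing notes. The authors' deposited table of log2 values, normalized in a way not given in the sources used here, served as an alternative.

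From the processed intensities, spots marked as outliers and control spots were left out, and spots of a probe were averaged. Each array was set to its 75th percentile on the log2 scale, and the probe with the highest mean stood for its gene (32678 features). Of the 41174 probes, 24844 had a symbol, through RefSeq. Features were tested if well above background on all 3 arrays of at least 1 group (24504). One model of group means over all 12 arrays was run in limma (version 3.58.1, under R 4.3.3), with Benjamini-Hochberg adjustment over all features and a threshold of 0.05, and the fit was tested on simulated data. No spot was saturated. A group that was not above background on every array gives only a lower bound of a fold, taken against the dimmest signal well above background.

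The 10 enzymes and all lists were chosen with earlier results of these data known. Named by rule were the enzymes, up to 4 called genes a pathway list with the largest differences in reprogrammed against adult lung, adult lung against adult mammary and reprogrammed against adult mammary, 12 fixed genes whatever their result (Ldhb, Hk3, Pfkm, Pfkp, Tpi1, Pgam1, Slc2a1, Slc2a3, Slc16a3, Pfkfb3, Pdk1 and Hif1a), and 5 genes of like pattern. Alternatives changed background correction, normalization, filter, probe choice, slide or replicate block, arrays fitted, array weights and variance trend. Normexp was run on the median signal, and a mean signal was not used here. Keeping outlier spots and using the raw median signal were alternatives added after seeing the data.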

Additional observations from a re-analysis of the deposited data

How the results depend on the processing

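RL, RM, AL and AM stand here for reprogrammed lung, reprogrammed mammary, adult lung and adult mammary. Of 144 results of single genes that were tested, 69 were called, and 24 of these were called the same way in every alternative. Signs changed under some alternative for 4 called results (Slc5a1, Slc2a5 and Fbp1 in RL minus AL and Car9 in AL minus AM, all with normexp) and for 36 that were not called. The causes of these changes were not tested. With 3 arrays a group, the number of arrays limits the precision, and for Slc5a1, Slc2a5 and Car9, which were not above background on every array, the fold is a lower bound. In RL minus AL 4 enzymes passed, and 1 did with centring on the array median, slide as a fixed block, the replicate number as a block and only the compared groups fitted, 2 did with no filter on background, and 1 to 5 with 1 array left out. In RM minus AL 5 enzymes passed, and 1 did with slide as a fixed block, 3 did with quantile normalization, no filter on background and the replicate number as a block, and 3 to 7 with 1 array left out. In AL minus AM 3 enzymes passed, and 0 did with slide as a fixed block, 5 did with a variance trend, 6 did with both narrow arrays left out, 7 did with only the compared groups fitted and array weights, and 3 to 7 with 1 array left out. In lung change less mammary change 0 enzymes passed, and 1 did with the authors' log2 values and a variance trend, 2 did with array weights and both narrow arrays left out, and 0 to 2 with 1 array left out. Calls over all features ranged from 2828 to 7952 in RL minus AL (5727 as reported), from 2437 to 12404 in RM minus AL (6394), from 2702 to 10372 in AL minus AM (6978) and from 1137 to 5713 for the difference of changes (3137), and from 0 to 348 in RM minus AM (1), from 0 to 328 in RL minus AM (7) and from 0 to 162 in RL minus RM (2). Scaling moved their split. In RL minus AL 3446 higher and 2281 lower were called as reported, 2520 higher and 2509 lower with centring on the array median, 2665 higher and 2943 lower with the authors' log2 values and 1123 higher and 1705 lower with normexp. With normexp the split was 1934 higher and 2576 lower in RM minus AL and 2894 higher and 1858 lower in AL minus AM, against 3646 higher and 2748 lower and 3071 higher and 3907 lower as reported. For the difference of changes it was 390 higher and 748 lower with normexp, 1371 higher and 1535 lower with quantile normalization, 1112 higher and 1298 lower with centring on the median and 1356 higher and 1725 lower with the authors' values, against 1816 higher and 1321 lower as reported. Normexp set the median of all features to -0.20 in RL minus AL, against 0.10 as reported.

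Whether the replicate numbers pair the arrays was not settled, since deviations from means of 3 arrays cannot exclude a pairing. Over 13 pairs of arrays with the same number, the correlation of deviations from the group means ran from -0.53 to 0.33, and 5 were over 0.1. With the replicate number as a block 1 enzyme passed in RL minus AL, 3 in RM minus AL and 3 in AL minus AM. With the replicate number as a block, the sign changed in RM minus AM Pgk1 (0.08) and Pkm (0.14), in RL minus AM Hk2 (0.11), in RL minus RM Gpi1 (0.11) and in lung change less mammary change Hk1 (-0.12) and Pkm (-0.05).

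With the normexp background correction, the sign changed in RL minus AL Aldoa (0.06), Hk3 (-0.06), Slc5a1 (-0.02), Slc2a5 (-0.44), Pdk1 (-0.52) and Fbp1 (-0.02), in RL minus RM Ldha (0.02) and in AL minus AM Hk3 (0.31), Pfkm (0.05), Pdk1 (0.40) and Car9 (0.08). With quantile normalization, the sign changed in RL minus AL Pfkfb3 (-0.07) and Pdk1 (-0.15), in RM minus AM Pkm (0.05), in RL minus AM Aldoa (-0.03) and Eno1 (0.02), in RM minus AL Aldoa (-0.03) and in RL minus RM Gpi1 (0.04). With centring on the array median, the sign changed in RL minus AL Pkm (-0.51), Pfkm (-0.08) and Pfkfb3 (-0.12), in RL minus AM Aldoa (-0.12) and Ldha (-0.09) and in lung change less mammary change Hk1 (-0.06) and Pkm (-0.47). With the authors' log2 values, the sign changed in RL minus AL Pfkfb3 (-0.06) and Pdk1 (-0.13), in RM minus AM Pkm (0.02) and Ldha (-0.01), in RL minus RM Gpi1 (0.05) and Ldha (0.12) and in AL minus AM Pfkm (0). With outlier-marked spots kept, the sign changed in RM minus AM Pkm (0.09). With the raw median signal, the sign changed in RM minus AM Pkm (0.01), in RL minus RM Ldha (0.02) and in AL minus AM Pfkm (0). With the mean of a gene's probes, the sign changed in RM minus AM Ldha (-0.13) and in RL minus AM Ldha (-0.19). With slide as a fixed block, the sign changed in RL minus AL Pkm (-0.05), in RM minus AM Hk2 (-0.29) and Pkm (0.14), in RL minus AM Hk1 (0.04), Gpi1 (-0.01), Eno1 (0.24) and Ldha (-0.02), in RM minus AL Aldoa (-0.09), in AL minus AM Ldhb (0.05) and Slc16a3 (-0.09) and in lung change less mammary change Pkm (-0.19). With slide as a random block, the sign changed in RL minus RM Gpi1 (0). With array weights, the sign changed in RL minus AL Ldhb (0.12) and Slc16a3 (-0.39), in RM minus AM Hk2 (-0.09), Pgk1 (0.05) and Pkm (0.03), in RL minus AM Eno1 (0.32), in RL minus RM Pfkl (0.09) and in lung change less mammary change Pkm (-0.01). With both narrow arrays left out, the sign changed in RL minus AL Aldoa (0.02), Ldhb (0.42), Hk3 (-0.06) and Slc16a3 (-0.31), in RM minus AM Hk2 (-0.16), Pgk1 (0.13) and Pkm (0.14), in RL minus AM Hk1 (0.16), Gpi1 (-0.08), Gapdh (0.01) and Eno1 (0.42), in RL minus RM Pfkl (0.08) and in AL minus AM Hk3 (0.16). Leaving out 1 array changed the sign of single genes, whose values then ran in RL minus AL Hk2 (-0.17 to 1.35), Pfkl (-0.03 to 0.71), Aldoa (-0.34 to 0.02), Pkm (-0.05 to 0.10), Ldhb (-0.93 to 0.42), Hk3 (-0.06 to 0.76), Pfkm (-0.06 to 0.24), Pfkp (-0.05 to 0.61), Slc16a3 (-0.31 to 0.89) and Pfkfb3 (-0.19 to 0.27), in RM minus AM Hk2 (-0.17 to 0.44), Pgk1 (-0.14 to 0.13) and Pkm (-0.20 to 0.14), in RL minus AM Hk1 (-0.59 to 0.09), Hk2 (-1.08 to 0.44), Gpi1 (-0.05 to 0.37), Aldoa (-0.07 to 0.30) and Eno1 (-0.28 to 0.27), in RL minus RM Hk2 (-1.32 to 0.21), Gpi1 (-0.23 to 0.19), Pfkl (-0.66 to 0.08) and Ldha (-0.11 to 0.02), in AL minus AM Hk3 (-0.38 to 0.16), Pfkm (-0.21 to 0.09) and Pfkfb3 (-0.44 to 0.07) and in lung change less mammary change Hk1 (-0.14 to 0.54), Hk2 (-0.40 to 1.12) and Pkm (-0.12 to 0.22). The isozyme balance Hk2 minus Hk1 in RL minus AL turned to -0.06 with the normexp background correction, Hk2 minus Hk1 in RL minus AL ran from -0.22 to 1.27 with 1 array left out, Hk2 minus Hk1 in RM minus AM turned to -0.05 with the normexp background correction and -0.42 with both narrow arrays left out, Hk2 minus Hk1 in RM minus AM ran from -0.45 to 0.36 with 1 array left out, Hk2 minus Hk1 in RL minus AM turned to -0.44 with both narrow arrays left out, Hk2 minus Hk1 in RL minus AM ran from -0.49 to 1 with 1 array left out, Hk2 minus Hk1 in RM minus AL turned to -0.49 with the normexp background correction, Hk2 minus Hk1 in RM minus AL ran from -0.18 to 0.59 with 1 array left out, Ldha minus Ldhb in RM minus AM turned to -0.01 with the mean of a gene's probes, Ldha minus Ldhb in RL minus AM turned to -0.14 with both narrow arrays left out, Ldha minus Ldhb in RL minus AM ran from -0.18 to 1.17 with 1 array left out.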
